A study of Mus musculus with 2 samples.

Results

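The laminin and integrin genes were followed across the cell types of the embryonic mouse cochlea and between 2 genotypes, in single-cell RNA sequencing data. Members were chosen by symbol alone: every gene of the count tables named Lama, Lamb or Lamc with a digit, or Itga or Itgb with a number, together with Itgae, Itgal, Itgam, Itgav and Itgax. This gave 36 of 32285 genes, of which 11 encode laminin chains and 25 encode integrin subunits. The cells came from cochleae dissected at E16.5 (E for embryonic day). The first library was made from Emx2Cre;Ptch1f/f embryos, in which Cre expressed from Emx2 acts on floxed Ptch1, the gene of the Hedgehog receptor that restrains the pathway, and is called the mutant below. The other library was made from wild-type embryos. Each library pooled 8 cochleae, and both genotypes were on a mixed 129/SvEv and C57BL/6N background. Emx2-Cre is active in Emx2-expressing cells, so that not every cell type of the mutant library needs to carry the deletion. As each genotype is a single library, differences between them have no replicate check and were not tested.

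Laminins are secreted trimers of an alpha, a beta and a gamma chain and form the core network of basement membranes, the sheets on which the cochlear epithelium, the nerve, glia and blood vessels rest. Integrins are cell surface receptors made of an alpha and a beta subunit, and each pair binds its own set of ligands: laminins, collagens, proteins with an RGD motif such as fibronectin, or partners on other cells. Loss of several of these chains and receptors is known to disturb epithelial, glial or vascular attachment.

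The mutant library held 12326 barcodes with 100135532 UMIs (unique molecular identifiers, each standing for 1 captured RNA molecule), and the wild-type library 6500 barcodes with 61130806 UMIs. After filtering, 8670 mutant and 6108 wild-type barcodes were kept, and 17 barcode sequences occurred among the kept barcodes of both libraries. Clusters named from markers gave 10 classes, and each name below stands for cells that look like that type by its markers. In every class of both libraries, all markers of its own list but at most 1 reached 10 CPM (a gene's UMIs scaled to the total of the class). Barcodes that carried UMIs of another lineage (mixed barcodes) were left out, which removed 5.22% of mutant and 39.3% of wild-type epithelial barcodes. The removal was uneven elsewhere too, with 0% of mutant and 59.4% of wild-type neurons, and 0% and 34.9% of erythroid cells. Every barcode of clusters 29, 30 and 31, which the naming had placed in the epithelium, was left out as mixed. These held 60, 60 and 59 wild-type barcodes and 0 mutant ones, and cluster 30 had been named marginal from its markers. Cluster 31 was led by Vwf and Gkn3. At Leiden resolution 2, a cluster of the same size and median depth (8542 UMIs) was named endothelium. The barcodes of cluster 31 are counted in the 39.3%. The epithelium was made of largely different clusters in the mutant and the wild type: clusters 1, 19, 10 and 20 held 632, 263, 350 and 361 unmixed barcodes of the mutant and 8, 2, 25 and 58 of the wild type, while clusters 12, 21, 27 and 28 held 0, 11, 1 and 2 of the mutant and 104, 210, 81 and 91 of the wild type. The median depth of unmixed epithelial barcodes was 4408 UMIs in the mutant and 8605.5 in the wild type. In epithelium, Ptch1 was at 187 CPM in the mutant and 34.6 CPM in the wild type, and Gli1, a transcriptional target of Hedgehog signalling, at 19.9 CPM in the mutant and 1.52 CPM in the wild type. The 3′ tags need not cover the floxed part of Ptch1, so its level does not check the deletion. Levels are CPM, and ranges in brackets are exact Poisson 95% intervals, which cover counting error only. Since a 3′ count is not scaled to captured length, levels are compared for the same gene across cells and never between genes.

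The members differed in the cell type in which they were highest. Of the 36 members, 28 had at least 30 UMIs over the named classes of each library. Of these, 24 had their highest level in the same class in both libraries, which was so for 56.3% of all genes with as many UMIs. The shared highest class was pericytes and smooth muscle for 7 members, epithelium for 5, glia for 5, endothelium for 4, macrophages for 2 and mesenchyme for 1. The 4 others were Itga4, Itga8, Itga10 and Itgam. Of these, Itga4 and Itgam were highest in mutant neutrophils, a class that had 47 mutant barcodes and only 10 in the wild type, under the 20 needed for a level. 25 members reached 20 CPM in at least 1 class.

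**Figure D1:**
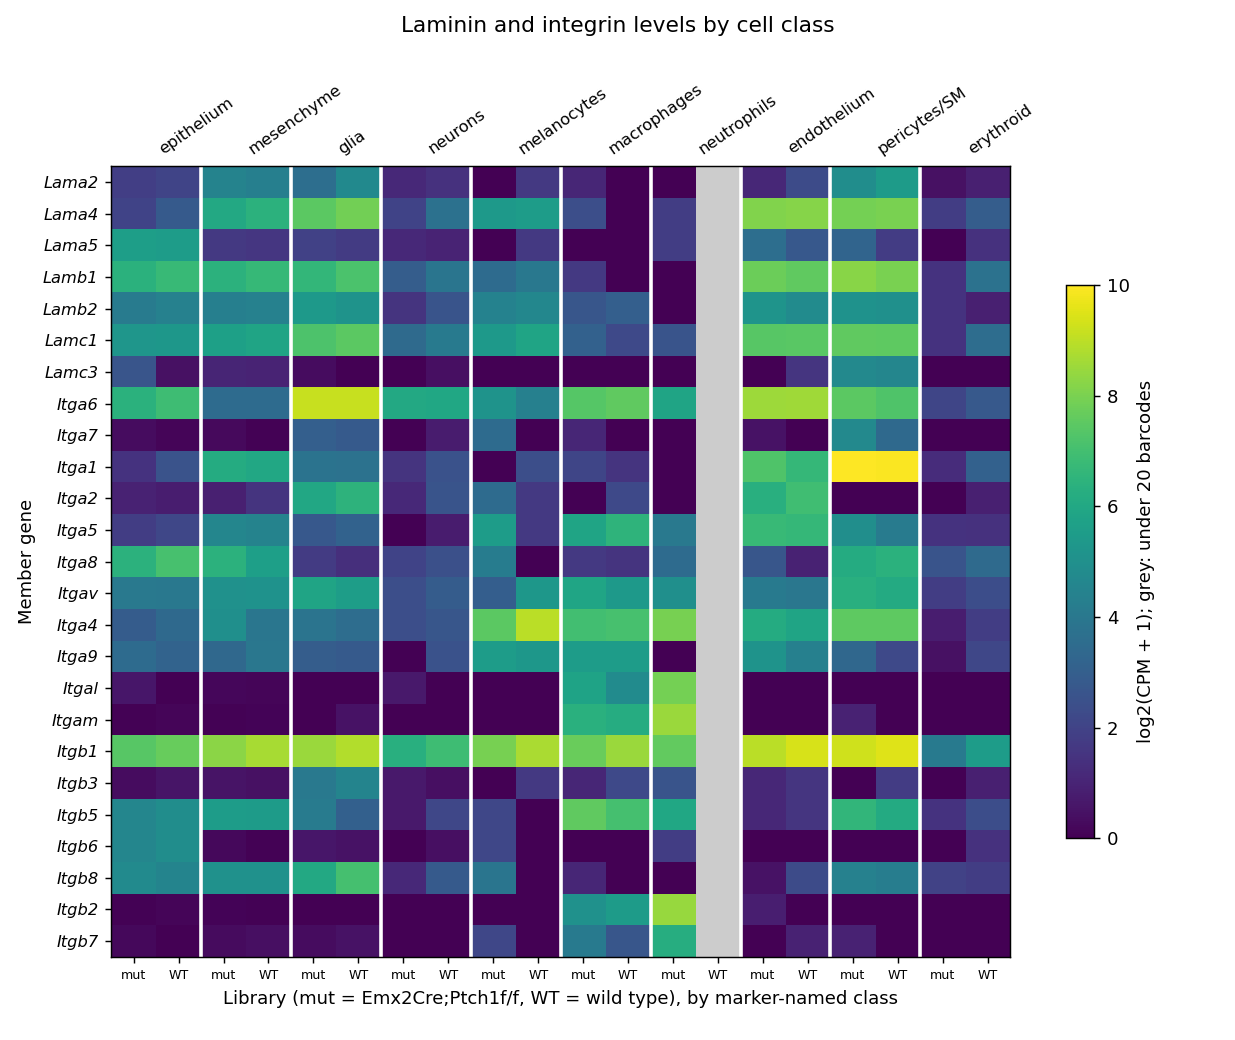
Levels of the 25 members that reached 20 CPM in a class, as log2(CPM + 1), with the mutant (mut) left of the wild type (WT) in each of 10 classes and grey where a library had under 20 barcodes. Itga1 is brightest in pericytes and smooth muscle (1001 CPM in the mutant and 970.5 CPM in the wild type), and Itgb6 is seen mainly in epithelium.

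Among the laminin alpha chains, Lama5, the main alpha chain of many epithelial basement membranes (chr2:180176373-180225859, mm10), was highest in epithelium, with 47.7 CPM (44.7 to 50.9) in the mutant and 44.8 CPM (40.8 to 49.02) in the wild type. Its next class was endothelium in both libraries, with 11.2 CPM in the mutant and 5.79 CPM in the wild type. Lama4, a chain of vascular and nerve basement membranes (chr10:38965515-39110188), stood at 271 CPM in the mutant and 287 CPM in the wild type in endothelium. Pericytes and smooth muscle (239 CPM in the mutant and 251 CPM in the wild type) did not differ from endothelium beyond the intervals. Glia (178 CPM in the mutant and 233 CPM in the wild type) were below endothelium with intervals apart in both libraries, and epithelium was far lower (3.02 CPM in the mutant and 6.10 CPM in the wild type). Lama2, known from muscle and Schwann cell basement membranes (chr10:26980036-27619758), reached 28.5 CPM in the mutant and 43.3 CPM in the wild type in pericytes and smooth muscle, where the intervals of the pair overlap. Lama1 stayed at or below 7.73 CPM and Lama3 at or below 3.86 CPM in every class of both libraries.

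Among the beta and gamma chains, Lamb1 (chr12:31265234-31329644) and Lamc1 (chr1:153218922-153332786), the chains shared by most laminins, were found in many classes. Lamc1 was found in every class with a level, while Lamb1 was at 0 CPM in mutant neutrophils and wild-type macrophages. Lamb1 was highest in pericytes and smooth muscle, with 296 CPM (265 to 330.4) in the mutant and 251 CPM (218 to 288) in the wild type, and stood at 212 CPM in the mutant and 189 CPM in the wild type in endothelium. Lamc1 was at 187 CPM in the mutant and 180.4 CPM in the wild type in pericytes and smooth muscle, 168 CPM in the mutant and 171 CPM in the wild type in endothelium and 146 CPM in the mutant and 180.0 CPM in the wild type in glia. These 3 classes did not differ beyond their intervals in the wild type, while in the mutant glia were below pericytes with intervals apart. Neurons were low for both chains, with Lamb1 at 6.76 CPM in the mutant and 13.6 CPM in the wild type and Lamc1 at 9.84 CPM in the mutant and 16.3 CPM in the wild type. Lamb2, a chain of neuromuscular and vascular basement membranes (chr9:108479736-108490530), was highest in glia at 40.2 CPM in the mutant and 34.4 CPM in the wild type, with intervals that overlap those of endothelium and pericytes. Lamb3 did not exceed 0.386 CPM in any class. Lamc3 (chr2:31887291-31946539), a gamma chain known from nerve and retina, was highest in pericytes and smooth muscle, with 24.8 CPM (16.4 to 36.1) in the mutant and 22.8 CPM (13.8 to 35.7) in the wild type.

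The laminin-binding alpha subunits were highest in different cells. Itga6, which pairs with Itgb1 or Itgb4 (chr2:71745616-71858416), was highest in glia, with 568 CPM (545 to 592) in the mutant and 572 CPM (544 to 602) in the wild type. Endothelium was next at 366 CPM in the mutant and 375 CPM in the wild type, and mesenchyme was lowest of the 3 large classes at 10.2 CPM in the mutant and 10.2 CPM in the wild type. Itga3 was highest in epithelium at 15.6 CPM in the mutant and 14.7 CPM in the wild type, followed in the mutant by neurons at 12.3 CPM and in the wild type by endothelium at 10.6 CPM, each with overlapping intervals. Itga7, the laminin receptor of muscle, reached 24.8 CPM in mutant and 9.62 CPM in wild-type pericytes and smooth muscle. Itgb4, the beta subunit of hemidesmosomes, was highest in epithelium at 16.2 CPM in the mutant and 16.8 CPM in the wild type, with overlapping intervals in glia at 11.6 CPM in the mutant and 13.5 CPM in the wild type.

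The collagen-binding alpha subunits also had different highest classes. Itga1 (chr13:114953096-115101964) was at 1001 CPM (942 to 1062) in mutant and 970.5 CPM (905 to 1039.8) in wild-type pericytes and smooth muscle. The next class was endothelium, at 150.2 CPM in the mutant and 100.3 CPM in the wild type, followed by mesenchyme at 69.7 CPM in the mutant and 62.5 CPM in the wild type. Itga2 was found in endothelium (79.2 CPM in the mutant and 123 CPM in the wild type) and in glia (62.5 CPM in the mutant and 87.3 CPM in the wild type) and was at 0 UMIs in pericytes and smooth muscle of both libraries. Itga11, a receptor of fibroblasts, was highest in mesenchyme at 14.8 CPM in the mutant and 19.8 CPM in the wild type, and Itga10 did not exceed 5.82 CPM anywhere.

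Of the subunits for RGD ligands, Itga5, the fibronectin receptor chain (chr15:103344286-103366763), was highest in endothelium at 105 CPM in the mutant and 100.3 CPM in the wild type, while wild-type macrophages came close with 90.6 CPM. Itgav was highest in pericytes and smooth muscle at 77.3 CPM in the mutant and 67.3 CPM in the wild type, followed by macrophages (57.7 CPM in the mutant and 39.8 CPM in the wild type) and glia (56.6 CPM in the mutant and 45.97 CPM in the wild type), whose intervals overlap. Itga8, the nephronectin receptor chain (chr2:12106632-12301922), was shared by epithelium (84.2 CPM in the mutant and 134 CPM in the wild type), mesenchyme (85.9 CPM in the mutant and 49.3 CPM in the wild type) and pericytes with smooth muscle (69.9 CPM in the mutant and 82.98 CPM in the wild type). Its highest class was mesenchyme in the mutant, with overlapping intervals between mesenchyme and epithelium there, and epithelium in the wild type. Among the beta subunits that pair with Itgav, Itgb5 was highest in macrophages (188 CPM in the mutant and 132 CPM in the wild type) and Itgb8 in glia (64.6 CPM in the mutant and 132 CPM in the wild type). Itgb3 was highest in glia too (15.7 CPM in the mutant and 21.6 CPM in the wild type). Itgb6, an epithelial subunit that activates TGF-beta (chr2:60598292-60722643), stood at 22.96 CPM (20.9 to 25.2) in mutant and 28.8 CPM (25.6 to 32.2) in wild-type epithelium. In mesenchyme it was at 0.162 CPM in the mutant and 0.038 CPM in the wild type, and no UMI was found in endothelium, pericytes with smooth muscle or macrophages of either library.

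Itga4, a subunit that binds VCAM1 and fibronectin (chr2:79255426-79333123), had its highest wild-type level in melanocytes, at 503 CPM (441 to 572) from 44 barcodes, against 178 CPM (133 to 234) in the 20 mutant melanocytes. In pericytes and smooth muscle it stood at 182 CPM in the mutant and 180.4 CPM in the wild type, and in macrophages at 125 CPM in the mutant and 136 CPM in the wild type. Itga9 was highest in macrophages at 45.7 CPM in the mutant and 45.3 CPM in the wild type, with melanocytes at 44.6 CPM in the mutant and 38.7 CPM in the wild type. Of the leukocyte subunits, Itgam, Itgb2, Itgal, Itgb7 and Itgax were highest in neutrophils or macrophages of the mutant and in macrophages of the wild type. Itgam, Itgb2 and Itgal were at 361, 349 and 238 CPM in mutant neutrophils, and in macrophages Itgam was at 79.5 CPM in the mutant and 72.5 CPM in the wild type and Itgb2 at 32.7 CPM in the mutant and 43.5 CPM in the wild type. Itgal, the alpha chain of LFA-1, was at 54.4 CPM in the mutant and 27.2 CPM in the wild type in macrophages. Itgb7 was at 74.3 CPM in mutant neutrophils, while Itgax did not exceed 5.44 CPM in any class. Itgae, known from T cells of epithelia, did not exceed 1.55 CPM and was highest in endothelium in the mutant and in glia in the wild type. Itgb1 (chr8:128685654-128733200), the common partner of most alpha subunits, was found in every class. It ran from 16.54 CPM in erythroid cells to 624 CPM in pericytes and smooth muscle of the mutant, and from 45.3 CPM to 728 CPM in the same classes of the wild type.

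The start regions of 4 members are shown because the results turn on them: Itgb1 was found in every class, Itgb6 was concentrated in epithelium, and Itga4 and Itga8 differed most between genotypes in mesenchyme. Each window runs from 250 bases before to 50 bases after an annotated start, from RefSeq on GRCm38.p6, and is written 5′ to 3′ along the gene's strand with CG dinucleotides in capitals.
Itgb1, chr8:128685404-128685703, plus strand: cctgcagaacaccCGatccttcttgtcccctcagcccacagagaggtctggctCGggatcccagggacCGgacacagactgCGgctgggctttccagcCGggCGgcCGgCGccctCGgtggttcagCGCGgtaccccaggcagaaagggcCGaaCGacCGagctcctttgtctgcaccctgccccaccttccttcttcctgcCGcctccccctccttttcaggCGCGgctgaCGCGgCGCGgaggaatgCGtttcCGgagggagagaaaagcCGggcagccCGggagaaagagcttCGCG
Itgb6, chr2:60722554-60722853, minus strand: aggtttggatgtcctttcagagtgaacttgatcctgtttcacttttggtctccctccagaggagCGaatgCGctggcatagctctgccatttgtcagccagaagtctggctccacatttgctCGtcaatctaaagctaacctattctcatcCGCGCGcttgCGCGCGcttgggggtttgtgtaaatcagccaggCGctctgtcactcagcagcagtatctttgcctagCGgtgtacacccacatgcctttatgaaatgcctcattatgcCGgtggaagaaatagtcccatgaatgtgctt
Itga4, chr2:79255176-79255475, plus strand: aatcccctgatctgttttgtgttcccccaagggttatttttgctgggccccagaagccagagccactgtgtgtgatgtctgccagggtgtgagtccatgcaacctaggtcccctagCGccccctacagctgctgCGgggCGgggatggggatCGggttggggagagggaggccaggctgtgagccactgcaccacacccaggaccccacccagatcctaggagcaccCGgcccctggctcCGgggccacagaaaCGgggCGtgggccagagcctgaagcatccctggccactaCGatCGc
Itga8, chr2:12301895-12302194, minus strand: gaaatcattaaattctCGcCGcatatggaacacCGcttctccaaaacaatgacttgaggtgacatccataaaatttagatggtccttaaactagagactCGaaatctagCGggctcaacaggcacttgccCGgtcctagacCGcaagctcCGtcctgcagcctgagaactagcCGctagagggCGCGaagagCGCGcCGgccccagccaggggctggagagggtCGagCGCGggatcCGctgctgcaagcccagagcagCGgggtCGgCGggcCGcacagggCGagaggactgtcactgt
Such windows were used for 23 of the 36 members (26 windows, since some have more than 1 start). The Itgb1 window held 27 CG dinucleotides, a number reached or passed by 15.5% of all 32851 windows. The Itga8 window held 23 (21.5% of windows held as many), the Itgb6 window 12 (39.6%) and the Itga4 window 10 (43.5%). CG is its own reverse complement, so that both strands hold the same count, and 94.6% of all windows held at least 1. A second annotated start of Itgb6 had 3. The median over the 26 member windows was 11, against 7 over all windows.

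Within the epithelium the members differed between regions of the duct. Only wild-type barcodes gave levels for hair cell-like (66), lateral (146) and marginal cell-like (47) sub-clusters, because the mutant held 2, 3 and 7 such barcodes. The marginal cell-like barcodes were those of sub-cluster 7, without cluster 30, which was left out as mixed. Roof-like cells had 546 mutant and 12 wild-type barcodes. Of their own markers, 4 of 6 reached 10 CPM in roof-like and in marginal cell-like cells, and at least 7 in the prosensory and medial cells. In the wild type, marginal cell-like cells, the future secretory layer of the stria vascularis, had the highest Lamb1 of the 5 epithelial types with a level, 276 CPM (234 to 323), against 136 CPM (119 to 154) in lateral and 121 CPM (111 to 131) in medial cells. They were also highest for Lama5 at 86.7 CPM, for Lamc1 at 58.4 CPM and for Itga4 at 63.7 CPM (44.6 to 88.2). Hair cell-like and prosensory cells were at the low end for Lamb1, at 29.9 and 31.96 CPM. Itga8, low in marginal cell-like cells, stood at 183 CPM (171 to 196) in wild-type medial cells and 163 CPM (145 to 183) in wild-type prosensory cells, which did not differ beyond their intervals, at 71.2 CPM in hair cell-like and 38.5 CPM in lateral cells, and at 21.2 CPM (10.97 to 37.1) in marginal cell-like cells. Of the 133 wild-type prosensory barcodes, 51 were sub-cluster 16, whose leading genes include Stmn3, Ina and Sncg, which also lead the neuron cluster. Its summed neuron markers were 1325 CPM, against 11741 CPM in wild-type neurons. Without it, wild-type prosensory cells had Itga8 at 202 CPM (177 to 229.6), Itga6 at 203 CPM (178 to 231) and Itgb6 at 57.8 CPM (44.8 to 73.5). With it, Itga6 was at 151, 136 and 117 CPM in wild-type prosensory, medial and lateral cells and at 52.8 CPM in hair cell-like cells. Itgb6 was at 41.1 and 35.9 CPM in prosensory and medial cells and at 7.10 CPM or less in the lateral, marginal and hair cell-like types.

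Between genotypes, the epithelial levels of the members were mostly within 2-fold. Of 28 members with at least 10 UMIs in epithelium, 1 was at least 2-fold higher in the mutant (background 2.51% of 15659 genes) and 1 was at least 2-fold lower (background 3.67%). Their counts are thus near the background and are no result about the family. Taken as log2((CPM mutant + 1)/(CPM wild type + 1)), the median ratio was -0.12 over the members and 0.02 over all genes, and every log2 ratio below is on this scale with the mutant on top.

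**Figure D2:**
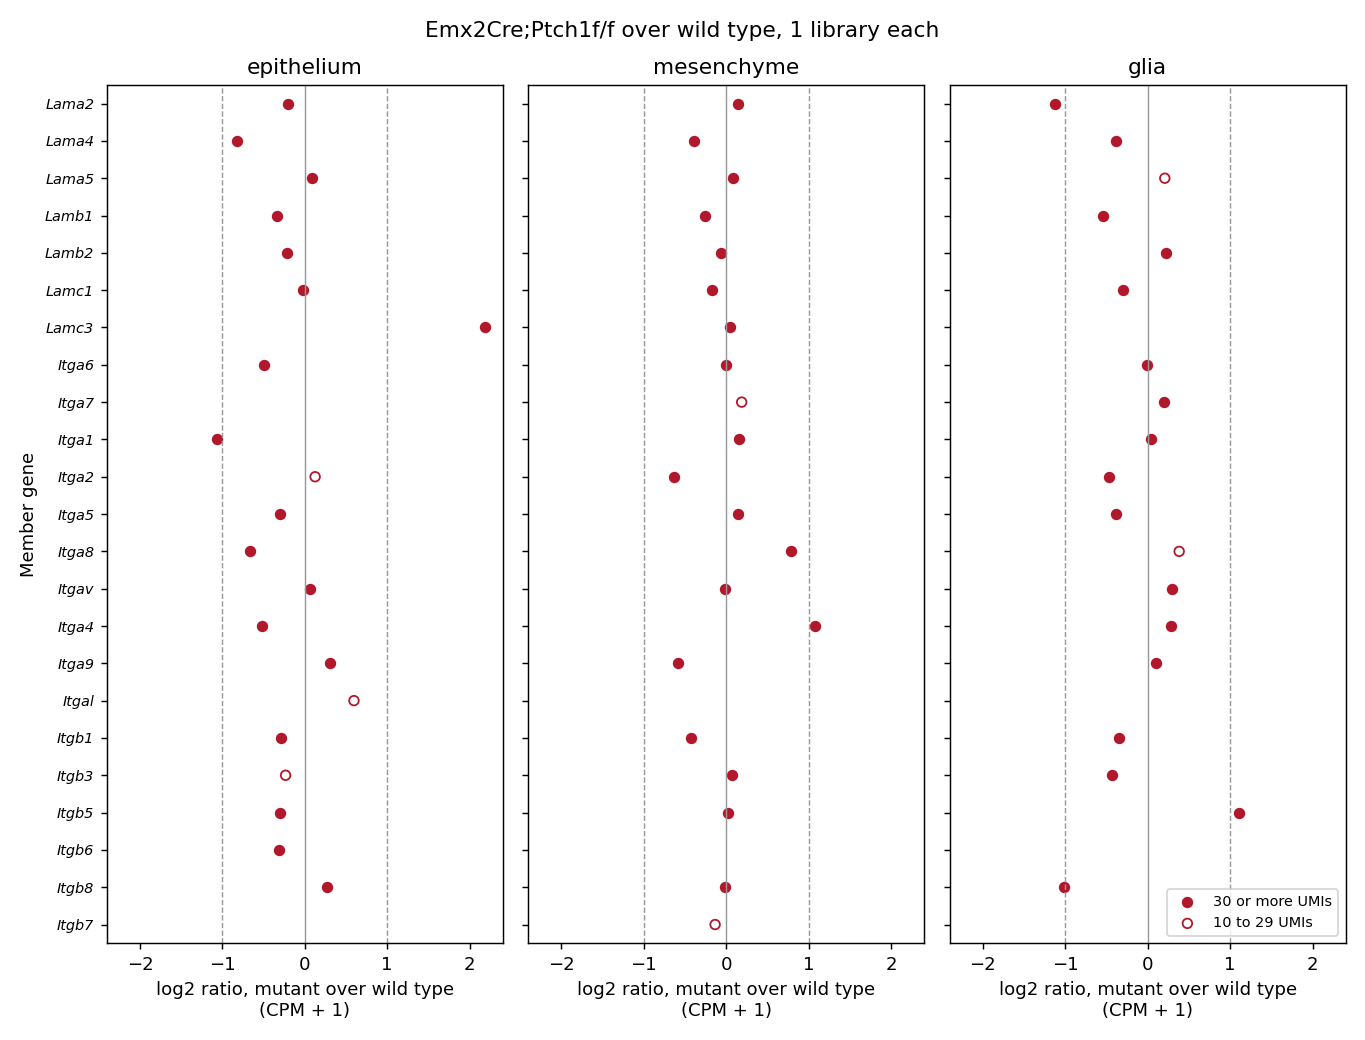
Log2 ratio of the mutant over the wild type for each of the members that reached 20 CPM in a class and had at least 10 UMIs in epithelium, mesenchyme or glia, 1 library per genotype, with filled points for 30 UMIs or more and dashed lines at 2-fold. Lamc3 in epithelium (2.18) lies farthest from 0, and most members lie between the dashed lines.

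Lamc3 was higher in mutant epithelium. It had 103 UMIs and 5.28 CPM (4.31 to 6.40) in the mutant, against 4 UMIs and 0.381 CPM (0.104 to 0.976) in the wild type, a log2 ratio of 2.18 and a linear fold of 13.8 (95% interval 5.25 to 51.8). The mutant signal sat mainly in prosensory cells, with 74 UMIs and 15.1 CPM (11.9 to 19.00) in the mutant and 0 UMIs in the wild type. Set against the limit that a count of 0 allows (3 UMIs, or 1.71 CPM), the counted mutant level was at least 8.84-fold higher. With sub-cluster 16 of the wild type left out, that bound was 5.84-fold. These folds take the mutant level as counted and leave out its own interval. Most of these UMIs came from sub-cluster 1, led by Fgf20 and Vstm2b, which held 193 mutant and 4 wild-type barcodes and had 18.7 CPM (14.4 to 23.9) in the mutant. In sub-cluster 3, led by Ackr4 and Slitrk6, where the mutant had 142 and the wild type 61 barcodes, Lamc3 was at 6.86 CPM (3.29 to 12.6) from 10 mutant UMIs and at 0 wild-type UMIs (0 to 5.65 CPM), with intervals that overlap. In the unnamed sub-clusters 5 and 8, with 163 and 75 mutant barcodes and 2 wild-type barcodes each, Lamc3 was at 13.3 and 28.4 CPM in the mutant. Without them and without sub-cluster 1, in the 3 sub-clusters that both libraries filled (0, 3 and 11), the log2 ratio was 1.57 from 12 UMIs in all. Over the whole epithelium it was 0.93 when 5 CPM were added in place of 1. Summed pericyte and smooth muscle markers in epithelium were 70.1 CPM in the mutant (7 of 8 detected) and 44.5 CPM in the wild type (8 of 8), against 5549.5 CPM in mutant pericytes, where Lamc3 was at 24.8 CPM. Their part in the difference was not tested.

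Itga1, at a low level in epithelium, was the member at least 2-fold lower there: 1.79 CPM (1.25 to 2.49) in the mutant and 4.86 CPM (3.62 to 6.39) in the wild type, a log2 ratio of -1.07. Its wild-type UMIs came largely from lateral and marginal cell-like cells, with 19 and 17 of 51, types with 3 and 7 barcodes in the mutant. In the 3 shared sub-clusters the ratio was 0.36 from 9 UMIs in all. With mixed barcodes kept it was -2.11, and under a stricter limit on mixed barcodes -0.34. Summed mesenchyme markers in epithelium moved with it, at 144 CPM in the mutant (10 of 10 detected) and 619 CPM in the wild type (10 of 10), and their part was not tested.

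The integrin subunits with most UMIs in epithelium were lower in the mutant by less than 2-fold. Itgb1 was at 167 CPM (161 to 173) in the mutant and 204 CPM (195 to 213) in the wild type (log2 ratio -0.29), and Itga6 was at 83.3 CPM (79.3 to 87.5) in the mutant and 118 CPM (111 to 125) in the wild type (-0.50). In the shared sub-clusters 0, 3 and 11 the log2 ratio of Itgb1 was -0.30, -0.65 and -0.33, lower in the mutant in each. Its intervals were apart only in sub-cluster 3 and overlap in 0 and 11. The ratio of Itga6 was 0.00, -0.57 and -0.69, with intervals apart in sub-clusters 3 and 11.

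Itga8 was at 84.2 CPM (80.2 to 88.4) in mutant and 134 CPM (127 to 142) in wild-type epithelium (log2 ratio -0.67). The value followed which barcodes were taken: it was -0.13 over the shared sub-clusters, -0.31 with mixed barcodes kept, and 0.59, the opposite direction, under the stricter limit on mixed barcodes. In medial cells, those of Kölliker's organ, Itga8 was at 58.8 CPM (52.1 to 66.2) in the mutant and 183 CPM (171 to 196) in the wild type, a log2 ratio of -1.62. It was the 1 member of 20 measured there that was at least 2-fold lower, and none was 2-fold higher (background 2.06% lower and 3.11% higher). The largest medial sub-cluster of the wild type was sub-cluster 14, led by Epyc and Calb1, with 180 wild-type barcodes and 1 mutant barcode, and there Itga8 was at 342 CPM (318 to 368) in the wild type. In the 2 medial sub-clusters that both libraries filled, Itga8 was at 67.2 CPM (59.02 to 76.2) in the mutant and 82.8 CPM (62.7 to 107) in the wild type in sub-cluster 0, which had 241 mutant and 64 wild-type barcodes. In sub-cluster 11, with 49 mutant and 137 wild-type barcodes, it was at 26.1 CPM (17.2 to 37.9) in the mutant and 20.1 CPM (13.9 to 28.3) in the wild type. The intervals overlap in both. Summed over these 2 sub-clusters, which the libraries filled in opposite proportions, the log2 ratio was 0.57, while within them it was -0.30 in sub-cluster 0 and 0.36 in sub-cluster 11. The median of all genes in medial cells moved by 0.11 on the log2 scale under median-of-ratios scaling, and Itga8 relative to it was at -1.73. In prosensory sub-cluster 3, Itga8 was at 208 CPM (186 to 233) in the mutant and 331 CPM (288 to 378) in the wild type, with intervals apart.

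Itgb6 showed opposite directions within the epithelium. Its whole-class values, 22.96 CPM in the mutant and 28.8 CPM in the wild type, gave a log2 ratio of -0.31. In prosensory sub-cluster 3 it was at 33.6 CPM (24.9 to 44.4) in the mutant and 96.5 CPM (74.2 to 123) in the wild type, a log2 ratio of -1.49, where 3.35% of all measured genes were at least 2-fold lower. In medial sub-cluster 11 it was at 63.7 CPM (49.3 to 81.02) in the mutant and 32.9 CPM (24.7 to 42.97) in the wild type (0.93), with intervals apart as well. In medial sub-cluster 0 the intervals overlap (-0.19). In the dividing sub-cluster 4, with 242 mutant and 33 wild-type barcodes, Itgb6 was at 24.3 CPM (20.2 to 29.1) in the mutant and 69.4 CPM (51.5 to 91.5) in the wild type. The difference between sub-clusters has no replicate check and was not tested.

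**Figure D3:**
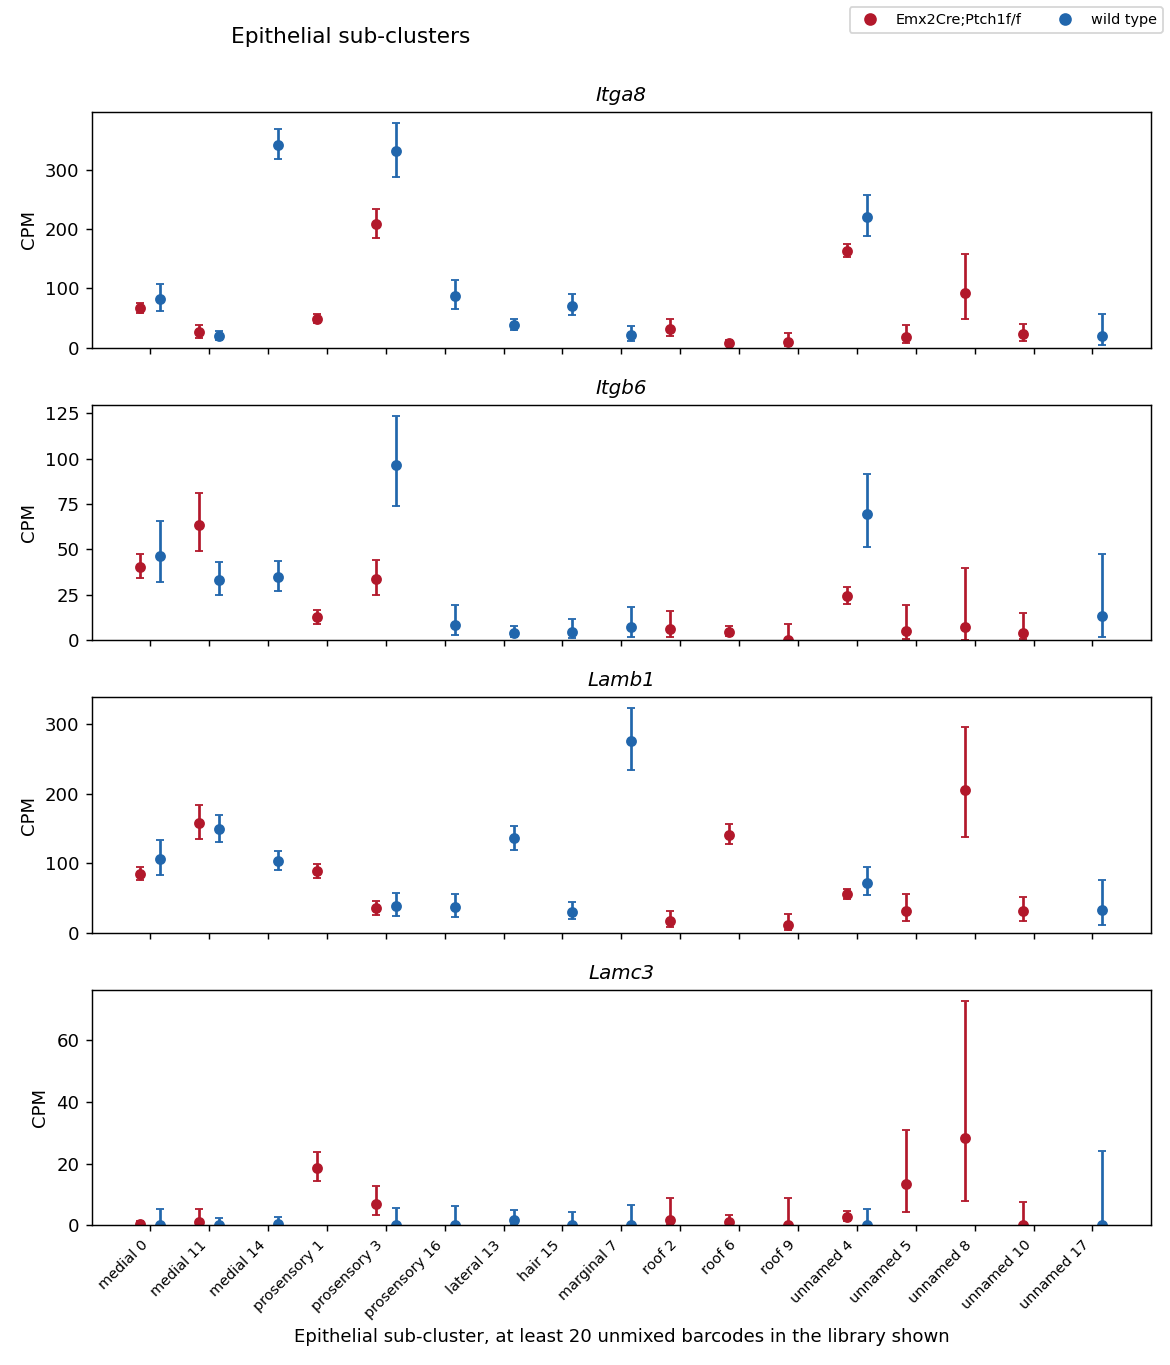
CPM of Itga8, Itgb6, Lamb1 and Lamc3 in each epithelial sub-cluster with at least 20 unmixed barcodes in the library shown, the mutant in red left of the wild type in blue, with exact Poisson 95% intervals. Itga8 is highest in the medial sub-cluster 14 (342 CPM, wild type only), Itgb6 is lower in the mutant in sub-cluster 3 and higher in sub-cluster 11, and Lamc3 is seen in mutant prosensory and unnamed sub-clusters.

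In mesenchyme, 31 members had at least 10 UMIs, and 1, Itga4, was at least 2-fold higher in the mutant (background 0.438% of 16676 genes). None was 2-fold lower (background 0.624%), and the median log2 ratio was -0.01 over the members and 0.04 over all genes. Itga4 was at 30.8 CPM (29.3 to 32.4) in the mutant and 14.1 CPM (12.7 to 15.6) in the wild type (log2 ratio 1.07). Across the 9 mesenchyme clusters with at least 100 unmixed barcodes in each library, it was higher in the mutant in 8. Its intervals were apart in clusters 2, 4, 7 and 17 and overlap in the others. Being higher in at least all clusters but 1 held for 16.8% of genes. The median of its log2 ratios over the 9 clusters was 0.50. The log2 ratio was largest in cluster 7, led by Tafa4, with 31.7 CPM (27.9 to 35.9) in the mutant and 5.76 CPM (3.69 to 8.56) in the wild type (log2 ratio 2.28). Cluster 4, led by Car3 and Otor, had 70.3 CPM (63.8 to 77.3) in the mutant and 19.7 CPM (16.05 to 24.04) in the wild type (1.78). Cluster 2, led by Ccn3 and Cdh6, had 41.4 CPM (37.3 to 45.7) in the mutant and 12.3 CPM (8.43 to 17.2) in the wild type (1.68). A single member past 2-fold in the class does not set the family apart from other genes. A 2-fold higher level in 3 or more clusters was found for 1.97% of all genes. In cluster 14, led by Slc5a7 and Coch, Itga4 was at 12.04 CPM in the mutant and 15.9 CPM in the wild type, with overlapping intervals. Summed markers of melanocytes, a class with high Itga4, were 24.2 CPM in the mutant (7 of 8 detected) and 39.4 CPM in the wild type (8 of 8) in mesenchyme, and those of pericytes and smooth muscle 118 CPM in the mutant (8 of 8 detected) and 105 CPM in the wild type (8 of 8). Summed neutrophil markers, from the class with the highest Itga4 in the mutant, were 2.20 CPM in the mutant (5 of 5 detected) and 0.571 CPM in the wild type (3 of 5). Their part in the difference was not tested.

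Itga8 was at 85.9 CPM (83.4 to 88.6) in mutant and 49.3 CPM (46.6 to 52.02) in wild-type mesenchyme (log2 ratio 0.79). It was higher in the mutant in 8 of the 9 clusters, by at least 2-fold in cluster 4 (31.6 CPM in the mutant and 8.38 CPM in the wild type, log2 ratio 1.80) and cluster 14 (17.9 CPM in the mutant and 7.19 CPM in the wild type, 1.21). Its intervals were apart in clusters 2, 4, 7, 14 and 17 and overlap in the others. A 2-fold higher level in 2 or more clusters was found for 6.17% of genes. Itga8 was highest in cluster 2 in both libraries, at 228 CPM in the mutant and 188 CPM in the wild type, with cluster 3 next. In cluster 2 its log2 ratio was 0.28, and the median over the 9 clusters was 0.33, both below the class ratio. Cluster 2 held 1090 mutant and 398 wild-type barcodes. It gave 2102 of the 4251 mutant and 506 of the 1295 wild-type Itga8 UMIs in mesenchyme. The part of cluster make-up in the class ratio was not tested. Col1a1, a check gene of this class, was at 22.02 CPM in the mutant and 46.8 CPM in the wild type.

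Itgb1, the member with most UMIs in mesenchyme, was at 306 CPM (301 to 311) in the mutant and 411 CPM (403 to 419) in the wild type (log2 ratio -0.42). It was lower in the mutant in all 9 clusters, with log2 ratios from -0.54 to -0.21 and intervals apart in each. Lamb1 was at 85.5 CPM (82.9 to 88.1) in the mutant and 103 CPM (98.9 to 107) in the wild type (-0.26) and also lower in all 9, from -0.66 to -0.01. Its intervals were apart in clusters 3, 4 and 14 and overlap in the others. Being lower in all 9 clusters held for 4.54% of all genes. Itgb1 was lower in the mutant in epithelium and glia too, but these classes come from the same 2 libraries and are no independent repeat. Lama4 (64.2 CPM in the mutant and 84.7 CPM in the wild type, log2 ratio -0.39) and Itga9 (9.52 CPM in the mutant and 14.8 CPM in the wild type, -0.58) were lower by less than 2-fold with intervals apart. Lamc1 was at 50.2 CPM in the mutant and 56.7 CPM in the wild type and Itgav at 32.6 CPM in the mutant and 33.1 CPM in the wild type.

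**Figure D4:**
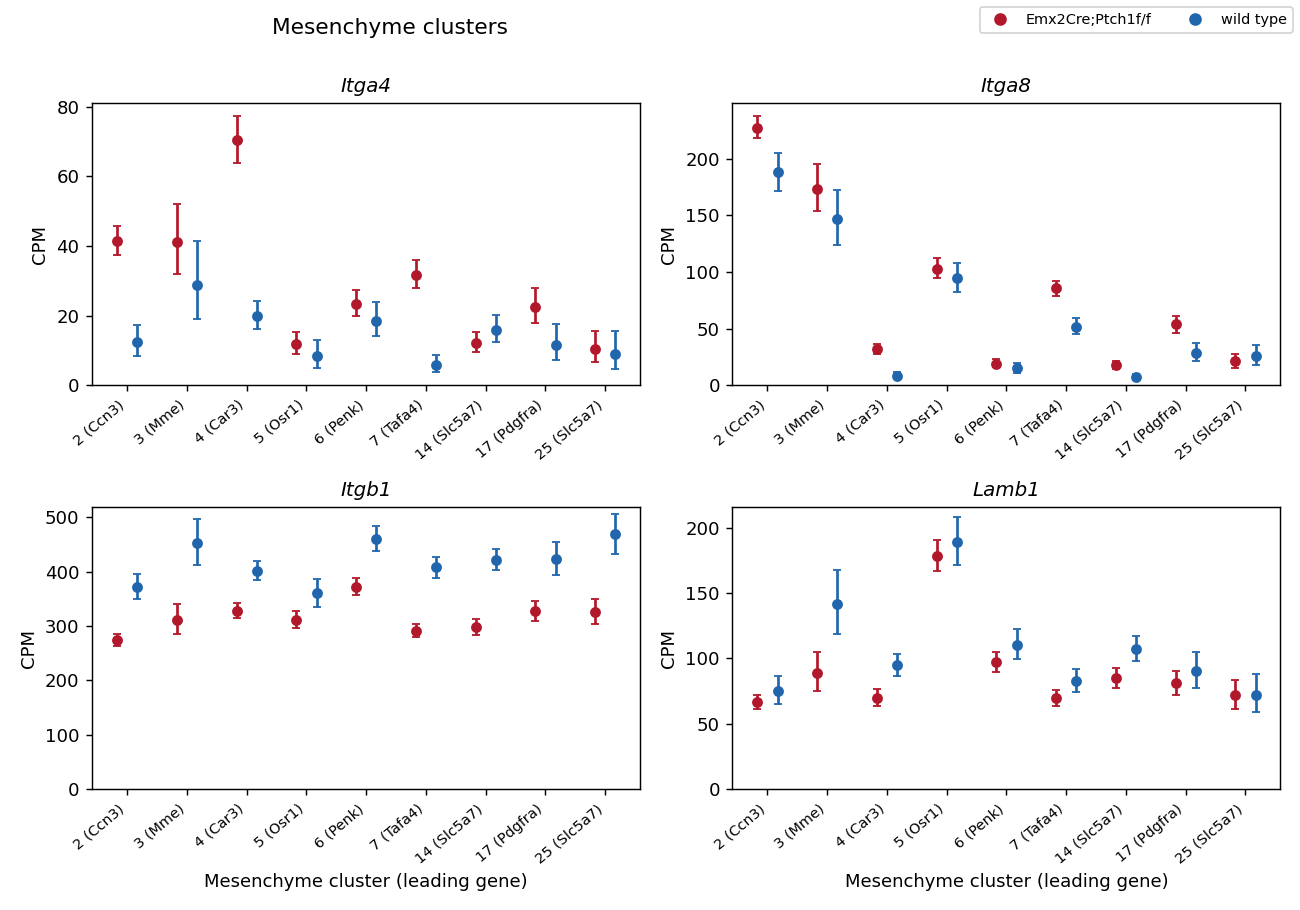
CPM of Itga4, Itga8, Itgb1 and Lamb1 in the 9 mesenchyme clusters with at least 100 unmixed barcodes per library, named by number and leading gene, the mutant in red left of the wild type in blue, with exact Poisson 95% intervals. Itga4 is higher in the mutant in clusters 2, 4 and 7, and Itgb1 is lower in the mutant in all 9.

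The members also differed among the mesenchyme clusters. Among 22 members with at least 30 UMIs in each library, 11 had the same highest cluster in both, against 44.1% of all genes with as many UMIs, so that the count is near the background. Itga9 was highest in cluster 6, led by Penk and Gdf10, at 29.7 CPM in the mutant and 53.02 CPM in the wild type. Itga11 was highest in cluster 14 at 47.3 CPM in the mutant and 66.3 CPM in the wild type. Lamb1 was highest in cluster 5, led by Osr1, at 178 CPM in the mutant and 189 CPM in the wild type, with intervals above the next cluster in both libraries. Lama2 was highest in cluster 6, at 53.4 CPM in the mutant and 48.7 CPM in the wild type. Itgb5 was highest in cluster 3, led by Mme, at 122 CPM in the mutant and 90.3 CPM in the wild type, and Itga1 in cluster 7 at 114 CPM in the mutant and 113 CPM in the wild type. For Lama2, Itgb5 and Itga1 the intervals of the highest and the next cluster overlap in both libraries.

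In glia, 22 members had at least 10 UMIs. Itgb5 was at least 2-fold higher in the mutant (background 2.53% of 12214 genes), and Itgb8 and Lama2 were at least 2-fold lower (background 1.66%). The calls are 3 genes in all, each close to 2-fold. With 5 CPM added none was past 2-fold, at log2 ratios of 0.83 for Itgb5, -0.98 for Itgb8 and -0.92 for Lama2. The median log2 ratio was -0.25 over the members and 0.01 over all genes. Itgb8, which with Itgav activates TGF-beta, was at 64.6 CPM (56.9 to 73.1) in the mutant and 132 CPM (118 to 147) in the wild type (log2 ratio -1.02). Both glial clusters showed it (339 mutant and 285 wild-type barcodes in cluster 24, and 78 mutant and 82 wild-type barcodes in cluster 8), with ratios of -0.97 in the larger cluster 24 and -1.18 in cluster 8. Lama2 was at 11.3 CPM (8.23 to 15.2) in the mutant and 25.9 CPM (20.1 to 32.9) in the wild type (-1.12), and at -1.38 and -0.54 in clusters 24 and 8, with overlapping intervals in cluster 8. Itgb5 was at 16.99 CPM (13.1 to 21.6) in the mutant and 7.34 CPM (4.42 to 11.5) in the wild type (1.11), from 66 mutant and 19 wild-type UMIs. Its ratios in clusters 24 and 8 were 1.16 and 1.03, with overlapping intervals in cluster 8.

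Other cell types' markers moved in glia as well. Summed macrophage markers, whose cells have the highest Itgb5, were 21.4 CPM in the mutant (9 of 10 detected) and 5.79 CPM in the wild type (7 of 10). C1qa, Cx3cr1 and Adgre1 were at 0 in wild-type and Adgre1 in mutant glia. Summed mesenchyme markers, from a class with Lama2, were 261 CPM in the mutant (10 of 10 detected) and 382 CPM in the wild type (10 of 10). The part of either in the glial differences was not tested. Lama4, Lamb1 and Lamc1 were each lower in mutant glia by less than 2-fold with intervals apart, at log2 ratios of -0.38, -0.54 and -0.30. Itga6, with 2207 mutant and 1482 wild-type UMIs, had a ratio of -0.01.

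Of the genes that act with the members, 53 in 5 lists were read in the same way. Of 14 other basement membrane genes, 13 were measured in epithelium and in mesenchyme and 11 in glia, and none was 2-fold higher or lower in these classes. Their median log2 ratio was -0.32 in epithelium, -0.41 in mesenchyme and -0.05 in glia, against 0.02, 0.04 and 0.01 over all genes. Of 13 other integrin ligands, 1 was 2-fold higher in mutant epithelium (background 2.51%) and 4 were lower (background 3.67%). In mesenchyme 1 was lower (background 0.624%), and in glia 2 were higher and 1 was lower (backgrounds 2.53% and 1.66%). Postn, a matrix ligand of Itgav integrins, was at 45.3 CPM in the mutant and 12.7 CPM in the wild type (log2 ratio 1.76) in epithelium. It was among the leading genes of roof-like sub-cluster 6, which held 73 mutant and 9 wild-type barcodes. The part of this make-up in the Postn ratio was not tested. Spp1, the RGD protein osteopontin, was at 1.13 CPM in the mutant and 23.5 CPM in the wild type in epithelium (log2 ratio -3.53). Fbln5, Vcam1 and Emilin1 were the other 3 that were lower there. In mesenchyme, Fbln5 was at 26.2 CPM in the mutant and 37.1 CPM in the wild type (log2 ratio -0.49), Vcam1 at 68.96 CPM in the mutant and 67.4 CPM in the wild type (log2 ratio 0.03) and Emilin1 at 95.7 CPM in the mutant and 105 CPM in the wild type (log2 ratio -0.14). The summed mesenchyme markers given above for epithelium were lower in the mutant too, and their part in these differences, in Tns1 and in the basement membrane median was not tested. Npnt, the main ligand known for the Itga8 integrin, was at 3.58 CPM in the mutant and 11.2 CPM in the wild type (log2 ratio -1.41) in mesenchyme. Its level was higher in epithelium, at 38.3 CPM in the mutant and 40.3 CPM in the wild type (log2 ratio -0.07). Within medial cells it was at 14.2 CPM in the mutant and 6.99 CPM in the wild type (0.93). Its log2 ratio in glia was 0.64, with overlapping intervals. In glia, Tnc was at 17.5 CPM in the mutant and 5.02 CPM in the wild type (log2 ratio 1.62), Emilin1 at 28.1 CPM in the mutant and 13.5 CPM in the wild type (log2 ratio 1.00) and Edil3 at 2.06 CPM in the mutant and 9.66 CPM in the wild type (log2 ratio -1.80). Among 18 integrin adaptors, Tns1 in epithelium was the 1 gene past 2-fold, at 7.99 CPM in the mutant and 22.5 CPM in the wild type (log2 ratio -1.39), and neither the 4 non-integrin laminin receptors nor the 3 measured hemidesmosome genes held one in epithelium, mesenchyme or glia.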

How the data were processed

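Each of the 2 libraries was deposited as a matrix of unnormalized UMI counts, whole numbers by gene and barcode. The headers name Cell Ranger 5.0.1 for the mutant and 6.0.0 for the wild type, and the submitters' processing notes name 6.0.0 and mm10. Barcodes had as few as 500 UMIs in the mutant but at least 3352 in the wild type. The 2 sample descriptions name different kit versions.

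Barcodes with at least 1000 UMIs, 500 genes and at most 10% mitochondrial UMIs passed (9373 mutant and 6440 wild-type). Scrublet's automatic threshold called 0 and 0 doublets, so it had not worked, and the 0.8% per 1000 barcodes with the highest scores were removed instead (703 and 332). Both libraries were clustered together (scanpy 1.11.5, 2000 variable genes without members or partner genes, 30 components, 15 neighbours, Leiden resolution 1), with no correction between libraries. Clusters were named from fixed marker lists by a scoring rule revised after the data were seen. Epithelial sub-clusters were named in the same way. Wild-type sub-cluster 17 (23 barcodes), led by the endothelial genes Esam and Plvap, stayed unnamed within the epithelium. Mixed barcodes had over 10 UMIs per 10000, and at least 3, from 29 genes of other lineages. The first form, over 5 per 10000 with Dcn and Lum, marked 72.1% of mutant and 92.1% of wild-type epithelial barcodes. It was replaced after that was seen and is the stricter limit named in the text.

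UMIs of a class were added up in each library and divided by the class total to give CPM, with exact Poisson 95% intervals (scipy 1.17.1). A ratio is log2((CPM mutant + 1)/(CPM wild type + 1)), with at least 10 UMIs, and 2-fold is a size of 1. The values of 1 member are not reported here, though it stays in the counts and medians. Members at 20 CPM in a class are described, and between genotypes those with 30 UMIs and a 2-fold ratio, and the 3 with the highest level in a class. The other members given between genotypes (among them Itga8, Itgb6, Lama4 and Itga9) were chosen after their values were seen. The ratios were checked on simulated counts. Members and lists were chosen with earlier results of these data known. Alternatives were another scaling, no UMI filter, 5 CPM added, mixed barcodes kept, a UMI floor of 3352, resolution 2, and, added after seeing the data, the stricter limit, shared clusters only and prosensory cells without sub-cluster 16.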

Additional observations from a re-analysis of the deposited data

Results flagged for a closer look

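The log2 ratio (mutant on top) pointed in opposite directions in different classes for 4 members, with Poisson intervals apart in each class named. The share of all genes that meet this rule is not given, so the count is no result about the family. Itga4 was at -0.51 in epithelium and 1.07 in mesenchyme. Within the epithelium, Itga4 was higher in mutant medial cells, at 15.7 CPM (12.3 to 19.8) in the mutant and 9.02 CPM (6.45 to 12.3) in the wild type (log2 ratio 0.74). In medial sub-cluster 0 (241 mutant and 64 wild-type barcodes) it was at 18.1 CPM in the mutant and 24.7 CPM in the wild type (-0.43). In sub-cluster 11 (49 mutant and 137 wild-type barcodes) the log2 ratio was 1.34, from 8 mutant and 4 wild-type UMIs. The intervals overlap in both sub-clusters. The part of sub-cluster make-up in the medial ratio was not tested. Of the 102 wild-type epithelial UMIs, 36 came from marginal cell-like cells, a type with 7 mutant barcodes. Itga8 was at -0.67 in epithelium and 0.79 in mesenchyme. Its epithelial ratio was -0.13 in the shared sub-clusters and 0.59 under the stricter limit on mixed barcodes. Itgb5 was at -0.30 in epithelium and 1.11 in glia. Itga1 was at -1.07 in epithelium and 0.16 in mesenchyme, but at 0.36 in the shared epithelial sub-clusters, from 9 UMIs. With 1 library per genotype the difference between classes was not tested.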

How the results depend on the processing

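No paired analysis was possible because there was 1 library per genotype. Shares over all genes were taken under the main setting only, so the counts of called members below have no background beside them. Adding 5 CPM ended the 2-fold calls: the counts of members called higher and lower were 0 and 0 in epithelium, 0 higher in mesenchyme, and 0 and 0 in glia. With mixed barcodes kept, 3 members were lower in epithelium, the epithelial median log2 ratio was -0.24, and 0 members were higher in glia. Under the stricter limit on mixed barcodes, 2 were higher and 2 lower in epithelium with a median of -0.25, and 2 were higher in glia. Without the UMI filter, 4 were lower in glia and the glial median was -0.14. With shared clusters only, Itga1 in epithelium was at 0.36 and Itga8 in medial cells at 0.57, both turned from negative. In glia that setting kept the larger cluster 24 alone (339 mutant and 285 wild-type barcodes), with 1 member lower. Cluster 8, left out there, also held both libraries (78 mutant and 82 wild-type barcodes). That setting holds fewer barcodes and other sub-clusters by construction, while the cause of the other shifts was not tested. Medial Itga8 was not run with mixed barcodes kept, the stricter limit or resolution 2.

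Of the members named in mesenchyme, Itga4 ran from 0.91 to 1.10 and Itga8 from 0.74 to 0.82 over the 8 alternatives. No alternative gave the libraries the same cluster proportions. Lamc3 in epithelium ran from 0.93 to 2.87, and Itgb8 in glia from -1.15 to -0.97. The count of members with the same highest class in both libraries ran from 22 to 26 over the 6 alternatives run for it, against 24 of 28. The number of members measured changed with the setting. The count was 22 of 27 under the stricter limit, 26 of 28 with the UMI floor and 26 of 36 without the UMI filter. The median-of-ratios scaling moved the median of all genes by at most 0.04 on the log2 scale in epithelium, mesenchyme and glia, and by 0.11 in medial cells. Intervals cover counting error only, and spread between embryos was not measured.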
